A study of Mus musculus with 2 samples.

Results

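The 8 genes described here encode RNA-binding and deadenylation proteins that limit messenger RNAs of T cell activation: Zfp36, Zfp36l1, Zfp36l2, Zc3h12a, Zc3h12d, Rc3h1, Btg1 and Btg2. They were chosen by name from what their proteins are known to do, out of 27514 gene identifiers shared by the skin and the lung count matrix, and all 8 were measured in both. Their levels were read in cells with at least 1 unique molecular identifier (UMI, the tag of 1 captured RNA molecule) of Cd3d, Cd3e and Cd3g together, the genes of the CD3 chains of the T cell receptor. These were 6012 of 6601 skin barcodes and 7841 of 8730 lung barcodes.

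Single-cell RNA sequencing had been done on regulatory T cells (Tregs) of 1 sample of back skin and 1 sample of lung of adult mice. The skin came from Foxp3-CreERT2GFP mice on C57Bl/6, in which GFP and a tamoxifen-inducible Cre recombinase are made where Foxp3 is active, and the lung from Foxp3-GFP C57Bl/6 mice that the labels call the Tachilla strain. No agent is named for either group, and the number of animals pooled, their sex and their age beyond adult are not given in the sources used here. Cells of both tissues were freed with collagenase and sorted for GFP, CD4, CD3 and CD45 before 10x 3′ v2 library preparation. With 1 library per tissue no test of skin against lung was possible, all intervals below are 95% intervals of counting error only, and tissue, reporter strain, library and gene annotation cannot be told apart.

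The labelled cell type was checked against marker genes. All 4 measured T cell markers and 4 of the 5 Treg markers exceeded 20 CPM (counts scaled to a common library total) in both libraries. The T cell markers include Cd3d, Cd3e and Cd3g, by which the cells were chosen, so the levels of these genes are no check of the cell type. Ikzf2, which encodes the Treg factor Helios, stood at 1561 CPM in skin and 552 CPM in lung, whereas Foxp3 itself stood at only 23.7 and 13.1 CPM and gave a UMI in 5.44% of skin cells (4.88 to 6.04) and 3.49% of lung cells (3.10 to 3.92). The CD3-gated cells had a median of 2047 UMIs in skin and 2351 in lung. RNA of other cells was present: the 5 fibroblast markers summed to 1881 CPM in skin against 42.2 in lung, and the 5 lung epithelial markers to 4025 CPM in lung with no UMI in skin. Of the CD3-gated cells, 3.21% in skin and 10.2% in lung held at least 3 UMIs of 1 such marker list. Cell barcodes of 71 gated cells occurred in both libraries, 1.18% of those in skin and 0.905% of those in lung.

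Most cytokine and early response messages are short-lived. Proteins of the ZFP36 family bind AU-rich elements in 3′ untranslated regions (UTRs) and recruit the CCR4-NOT deadenylase, which removes the poly(A) tail. Regnase-1 and Roquin-1 act on stem-loops, the former by cutting the RNA and the latter by recruiting deadenylases, and BTG1 and BTG2 join the deadenylase to poly(A)-binding protein. In T cells these proteins restrain activation, and several of them are themselves induced by the signals whose messages they shorten.

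All 8 genes were found in GENCODE release M21 on GRCm38 (mm10), with positions counted from 1. Zfp36 (ENSMUSG00000044786) lies at chr7:28376784-28380253 on the minus strand, Zfp36l1 (ENSMUSG00000021127) at chr12:80107754-80113013 on the minus strand and Zfp36l2 (ENSMUSG00000045817) at chr17:84183931-84187947 on the minus strand. Zc3h12a (ENSMUSG00000042677) lies at chr4:125118423-125127840 on the minus strand, Zc3h12d (ENSMUSG00000039981) at chr10:7832470-7870396 on the plus strand and Rc3h1 (ENSMUSG00000040423) at chr1:160906418-160974978 on the plus strand. Btg1 (ENSMUSG00000036478) lies at chr10:96617006-96622809 on the plus strand and Btg2 (ENSMUSG00000020423) at chr1:134075170-134079120 on the minus strand. Gm26669, a model on the strand opposite Zfp36l1 with 272 skin and 70 lung UMIs, and Gm44710, opposite Zfp36 with 0 and 2 UMIs, overlap an exon of their partner. Both held far fewer UMIs than the 18569 and 6991 of Zfp36l1 and the 6805 and 2803 of Zfp36.

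The ZFP36 family's preferred element, the nonamer TTATTTATT, was searched on the sense strand of the longest annotated 3′ UTR of each gene. It occurs once each in Zfp36, Zfp36l1, Zfp36l2 and Rc3h1, that is in messages of the regulators themselves, and once each in Areg, Il13, Il2 and Lta among the cytokines measured below. The following 30-base windows of mm10, written 5′ to 3′ on the strand of the gene with the nonamer in capitals, are shown because these regulators and cytokines carry the results below.
Zfp36, chr7:28376950-28376979, minus strand: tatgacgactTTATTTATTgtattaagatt
Zfp36l1, chr12:80108166-80108195, minus strand: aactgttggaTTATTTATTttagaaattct
Zfp36l2, chr17:84184913-84184942, minus strand: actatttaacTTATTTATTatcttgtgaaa
Rc3h1, chr1:160970043-160970072, plus strand: actttactcaTTATTTATTgagatgaggag
Areg, chr5:91148382-91148411, plus strand: tatttaagtgTTATTTATTttatagctcat
Il13, chr11:53631740-53631769, minus strand: cttcttgatcTTATTTATTatggttgtgtg
Il2, chr3:37120897-37120926, minus strand: ttatctgaaaTTATTTATTatattgaattg
Lta, chr17:35203395-35203424, minus strand: aaaagttaagTTATTTATTtatagagaata

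The nonamer occurs in 7.66% of the longest 3′ UTRs of 20708 genes. Among UTRs within 20% of the length of the gene in question, the share that holds it is 4.03% for Zfp36, 10.1% for Zfp36l1 and for Zfp36l2, 27.1% for Rc3h1 and 1.67% for Areg. Tnf holds 5 overlapping copies within its 764-base UTR, Il4 and Il10 hold only the shorter TATTTAT, 2 and 4 times, and Btg2 holds it once. That heptamer lies inside the nonamer, so every nonamer counts as a heptamer too, and 27.6% of all 3′ UTRs hold at least 1. Neither motif was found in the 3′ UTRs of Zc3h12a, Zc3h12d, Btg1, Ltb, Tgfb1, Ebi3 and Ccl5. A match is a run of letters in the annotated UTR and was not measured as a bound site.

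Levels of the decay regulators differed between the libraries in both directions. Zfp36, Zfp36l1, Zc3h12a and Zc3h12d were 2.72-fold to 3.94-fold higher in skin, Btg1, Btg2 and Rc3h1 were 1.47-fold to 1.67-fold higher in skin, and Zfp36l2 was 1.93-fold higher in lung. Levels are CPM of the pooled gated cells. They are set against the same gene in the other library only, because 3′ tag counts are not scaled to transcript length.

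Among the AU-rich element binding proteins, Zfp36, which encodes tristetraprolin, had 470 CPM (459 to 481) in the skin library and 130 CPM (126 to 135) in that of lung, a ratio of 3.60 (3.45 to 3.76). Zfp36l1, whose protein BRF1 binds the same element, had 1282 CPM (1263 to 1300) in skin against 325 CPM (318 to 333), a ratio of 3.94 (3.83 to 4.05). Zfp36l2, which encodes the third family member found in T cells, had 313 CPM (304 to 322) in skin against 606 CPM (596 to 616) in lung. The lung library thus held 1.93-fold more of it (1.87 to 2.0), against the direction of its 2 relatives.

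Zc3h12a encodes Regnase-1, the endonuclease that cuts stem-loops of cytokine messages. Its level in skin was 97.9 CPM (92.9 to 103), and in lung it was 29.5 CPM (27.2 to 31.8), 3.32-fold (3.03 to 3.66) higher in skin. Zc3h12d, which encodes Regnase-4, stood at 48.5 against 17.8 CPM, 2.72-fold (2.40 to 3.09) higher in skin. Rc3h1, which encodes Roquin-1, was near the floor of 20 CPM in both libraries, at 30.2 CPM in skin and 20.5 CPM in lung, with a ratio of 1.47 (1.28 to 1.68).

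The antiproliferative adaptors were closer between tissues. Btg1 stood at 3863 CPM in skin and 2308 CPM in lung, a ratio of 1.67 (1.65 to 1.69). Btg2 stood at 622 CPM in skin and 403 CPM in lung, a ratio of 1.54 (1.5 to 1.59).

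**Figure D1:**
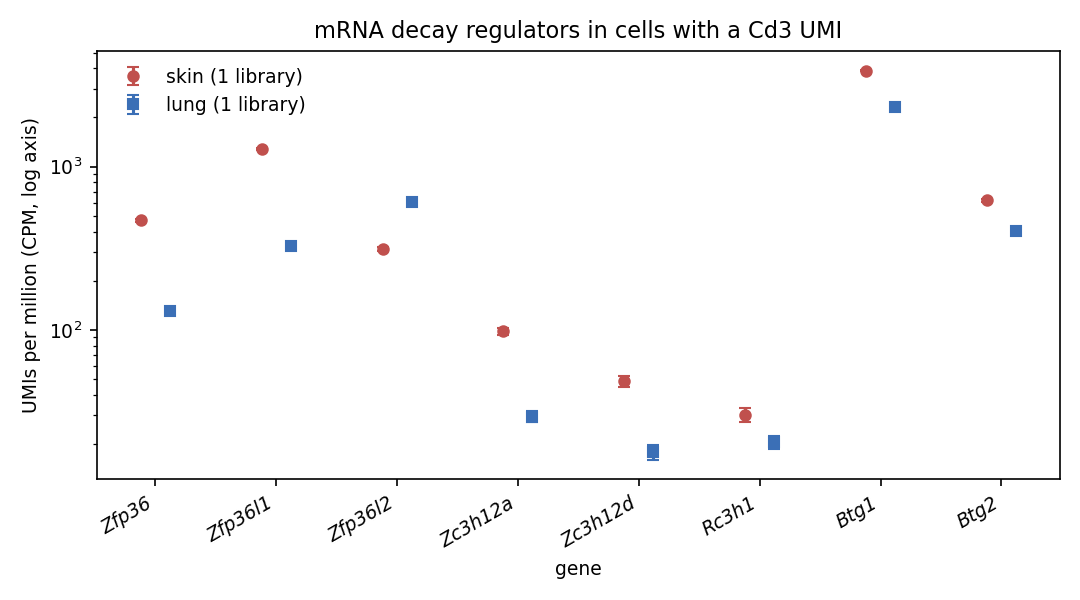
Levels of the 8 decay regulators (CPM, log axis) in CD3-gated cells of the skin library (circles) and the lung library (squares), with 95% Poisson intervals of the pooled counts. Zfp36l2 alone stands higher in lung (606 against 313 CPM), and the other 7 stand higher in skin.

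On the scale of log2(CPM + 5), 4 of the 8 genes passed 2-fold toward skin (Zfp36, Zfp36l1, Zc3h12a and Zc3h12d) and 0 toward lung, with no test behind these counts. Among the 5686 genes that reached 20 CPM in 1 of the libraries or both, 15.2% passed 2-fold toward skin and 4.96% toward lung. The median log2 ratio of the 8 genes was 0.98 and that of all 5686 genes 0.37. With library totals the median gene thus lay toward skin, and the reason was not tested. With median-of-ratios scaling, which brought the median of all genes to 0.04, Zfp36l2 passed 2-fold toward lung (log2 ratio −1.27) and Zc3h12d missed it toward skin (0.95), which leaves 3 genes higher in skin and 1 in lung, beside 9.49% and 7.95% of all genes. Totals without mitochondrial and ribosomal protein genes gave the same counts, with −1.34 and 0.94, beside 8.78% and 9.02% of all genes. Under these 2 scalings the ratio was 1.33 and 1.27 for Btg1, 1.23 and 1.17 for Btg2 and 1.17 and 1.12 for Rc3h1. The share of all called genes that lay on the skin side was 75.4% with library totals, 54.4% with median-of-ratios scaling and 49.3% without those genes.

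The tissue ratios kept their direction for the ZFP36 family in cells chosen more strictly. Where a Foxp3 UMI was present, in 327 skin and 274 lung cells, the ratio was 2.78 (2.33 to 3.33) for Zfp36, 3.54 (3.14 to 3.99) for Zfp36l1 and 0.617 (0.532 to 0.716) for Zfp36l2. Without cells that carried markers of other cell types, the ratios were 3.58, 3.96 and 0.510 in the same order. Those other cells express the genes too. In the 19 skin and 166 lung cells with no CD3 UMI and at least 3 UMIs of a non-T marker list, Zfp36 stood at 1077 CPM in skin and 277 CPM in lung, above the gated cells of the same library. Zfp36l2 stood lower there than in the gated lung cells, at 151 CPM in lung and 183 CPM in skin. For Zc3h12a, 2 UMIs in the 166 lung cells gave 4.43 CPM, and 3 UMIs in the 19 skin cells gave 68.7 CPM.

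Per cell, the 8 genes together made up 0.738% of UMIs in skin and 0.424% in lung once every cell had been thinned at random to 1000 UMIs, so that cells are compared at the same depth. Thinning left out 0 skin cells and 76 lung cells below that depth. A thinned cell held a median of 7 UMIs of the 8 genes in skin and 4 in lung, and a median of 3 and 2 different members. Zfp36l1 gave a UMI in 69.0% of thinned skin cells (67.9 to 70.2) and 26.8% of thinned lung cells (25.8 to 27.8), against 88.3% and 50.5% without thinning. For Zfp36l2 the order was opposite, with 26.2% (25.1 to 27.4) in skin and 42.4% (41.3 to 43.5) in lung, against 45.1% and 68.5% without thinning. Zc3h12a was seen in 9.48% (8.75 to 10.2) and 2.83% (2.48 to 3.23) of thinned cells, against 19.9% and 7.27%. Btg1 was seen nearly everywhere, in 93.8% and 85.8% of thinned and 98.8% and 97.5% of unthinned cells. The thinned share in the cells with no CD3 UMI, whose median depth was 1646 UMIs in skin and 2085 in lung before thinning, was 47.4% and 26.2% for Zfp36l1, 21.1% and 19.1% for Zfp36l2 and 5.26% and 1.42% for Zc3h12a. For Zfp36 it was 42.1% in skin and 17.0% in lung, above the 35.4% and 11.6% of the gated cells. Fibroblasts and myeloid cells also express Zfp36 and Zfp36l1, so these cells do not measure free RNA of those genes.

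Among cells of 1 library, the counts of the widely detected members had a variance above that of a Poisson draw. Those of the rare members had a variance close to it. The variance of thinned counts over their mean was 2.29 for Btg1, 1.49 for Btg2 and 1.35 for Zfp36 in skin, and 1.84, 1.33 and 1.17 in lung. For Zc3h12a it was 1.05 in skin and 1.09 in lung, close to the 1 of counting error alone. This measure grows with the mean count as well as with the spread between cells. In skin that mean was 4.30 UMIs a cell for Btg1 and 0.102 for Zc3h12a. A value near 1 for a rare gene therefore does not show that it varied less between cells.

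Within a library, several members stood higher in cells with more early response UMIs, and in skin Zfp36 and Btg2 rose most in proportion. The early response sum is the UMIs of 16 rapidly induced genes, among them Fos, Junb and Nr4a1, per 1000 thinned UMIs of a cell. Its median was 21 in skin and 6 in lung. From the lowest quartile of skin cells (1 to 15 such UMIs) to the highest (30 to 123), Zfp36 stood at 267 and 893 CPM. Btg2 stood at 498 and 1025 CPM over the same quartiles. Relative to their level, the steps were smaller for Zfp36l1 (1096 to 1535 CPM), Btg1 (3423 to 4861 CPM) and Zfp36l2 (310 to 392 CPM). Zc3h12a stood at 86.8 CPM in the lowest and 103 CPM in the highest quartile. In lung, from the lowest quartile (0 to 3 early response UMIs) to the highest (9 to 64), Zfp36 stood at 86.2 and 217 CPM, Zc3h12a at 19.8 and 51.2 CPM and Zfp36l2 at 636 and 673 CPM. Zfp36l1 stood there at 268 and 461 CPM, Btg2 at 346 and 549 CPM and Btg1 at 2270 and 2845 CPM. Over the same quartiles, Zc3h12d stood at 54.1 and 37.9 CPM in skin and at 9.91 and 22.4 CPM in lung. Rc3h1 stood at 37.8 and 32.3 CPM in skin and at 19.3 and 22.4 CPM in lung. The lung step of Btg2 was thus smaller in proportion than those of Zfp36, Zfp36l1, Zc3h12a and Zc3h12d.

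**Figure D2:**
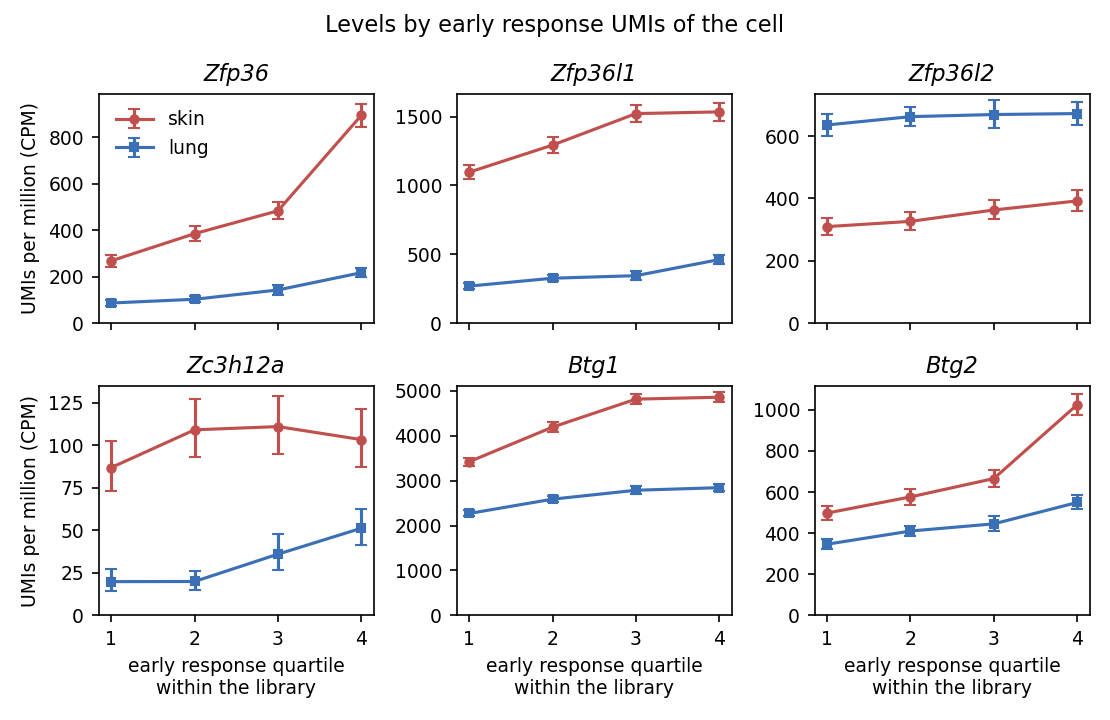
Levels of 6 decay regulators (CPM, linear axes from 0, a different range in each panel) in quartiles of the cells of each library ranked by early response UMIs, in cells thinned to 1000 UMIs. Bars are 95% Poisson intervals. The skin line for Zfp36 climbs from 267 to 893 CPM, while the lung line for Zfp36l2 stays between 636 and 673 CPM.

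Since the early response sums of the 2 libraries differ in their median, the tissue ratios were computed again in cells of both with 9 to 15 such UMIs, a range chosen after the data had been seen. It held 1294 skin and 1598 lung cells, with means of 12.4 and 10.9 early response UMIs. There Zfp36l1 was 2.75-fold (2.50 to 3.01) higher in skin, against 3.94-fold in all cells. Zfp36l2 stayed lower in skin at 0.467 (0.415 to 0.524). Zfp36 was 1.59-fold (1.36 to 1.86) higher in skin and Zc3h12a 1.97-fold (1.46 to 2.66), both below their ratios in all cells. Zc3h12d was 2.54-fold (1.66 to 3.95) higher in skin, against 2.72-fold in all cells. Rc3h1 was 1.80-fold (1.15 to 2.85) higher in skin, against 1.47-fold in all cells. Btg2 stood at 507 CPM in skin and 497 CPM in lung, a ratio of 1.02 (0.918 to 1.13), and Btg1 had a ratio of 1.26 (1.21 to 1.31). Among cells in the lowest quartile of early response share set over both libraries, only 34 were from skin against 3430 from lung, and there Btg1 stood at a ratio of 0.733 (0.628 to 0.850) and Btg2 at 0.722 (0.475 to 1.05). The part of early response in the tissue ratios was not tested beyond these values. With 9 to 15 early response UMIs, 2 of the 8 members passed 2-fold toward skin (Zfp36l1 and Zc3h12d) and 1 toward lung (Zfp36l2), beside 17.4% and 5.04% of 5751 genes.

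The promoters were searched because Zfp36 and Btg2 moved with early response genes, in skin most of the members in proportion. RefSeq promoters (GRCm38.p6, 250 bases before to 50 after the start site) were found for 7 of the 8 members and searched on both strands. The Zfp36 promoter holds a CArG box, the binding motif of serum response factor, beginning 58 bases before the start site. The Btg2 promoter holds the cyclic AMP response element TGACGTCA beginning 166 bases before it. Of 32851 promoters of the same length, 1.63% hold a CArG box and 1.79% hold TGACGTCA. The motif of AP-1, TGANTCA, which 7.81% of promoters hold, occurs in those of Zfp36l1 and Rc3h1. The promoters of Zc3h12a, Zc3h12d and Btg1 hold none of these motifs. Among early response genes searched alike, Fos and Nr4a1 hold none of them either, and Dusp1 holds TGACGTCA beginning 143 bases before its start site. A motif of NF-kB, held by 4.51% of promoters, and the E-box CACGTG, held by 7.15%, were searched too. Neither occurs in the promoter of a member, while Fos and Nr4a1 hold the NF-kB motif and Dusp1 the E-box. Whether a motif goes with the early response relation was not tested. A match describes the letters of the window and is not a measured binding site. The 2 windows are written 5′ to 3′ on the strand of the gene, with the motif in capitals.
Zfp36, chr7:28379267-28379296, minus strand: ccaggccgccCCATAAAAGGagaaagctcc
Btg2, chr1:134079303-134079332, minus strand: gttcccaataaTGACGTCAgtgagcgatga

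The next question was whether cells with a cytokine message differed in the decay regulators from cells of the same library without one. Most combinations showed little difference. Thinned cells with a UMI of a cytokine gene were set against those without for each of 31 listed cytokines that reached 100 positive cells, which were 15 in skin and 6 in lung. A regulator counted as different at 1.5-fold or more on log2(CPM + 5), when it had at least 100 CPM in either set. Cells of 1 library are not replicates, so these are descriptions of each library.

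In skin, 86 of 90 member and cytokine pairs lay within 1.5-fold, 2 were higher in cytokine-positive cells and 2 lower. Over all genes, 1.97% of pairs were higher and 2.04% lower. In lung, 29 of 30 pairs lay within 1.5-fold and 1 was higher, where 5.53% of pairs over all genes were higher and 2.02% lower. The shares for the regulators are thus near those of all genes. The 2 higher pairs in skin were Zfp36 with Il4 and Zc3h12a with Areg, the 2 lower ones Zfp36 and Zc3h12a with Lta, and the higher pair in lung was Zfp36l1 with Areg. Random thinning moves such ratios, so the mean over 20 thinnings, added after the data had been seen, is given beside each. On that mean 0 pairs in skin and 1 in lung, Zfp36l1 with Areg, passed 1.5-fold.

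**Figure D3:**
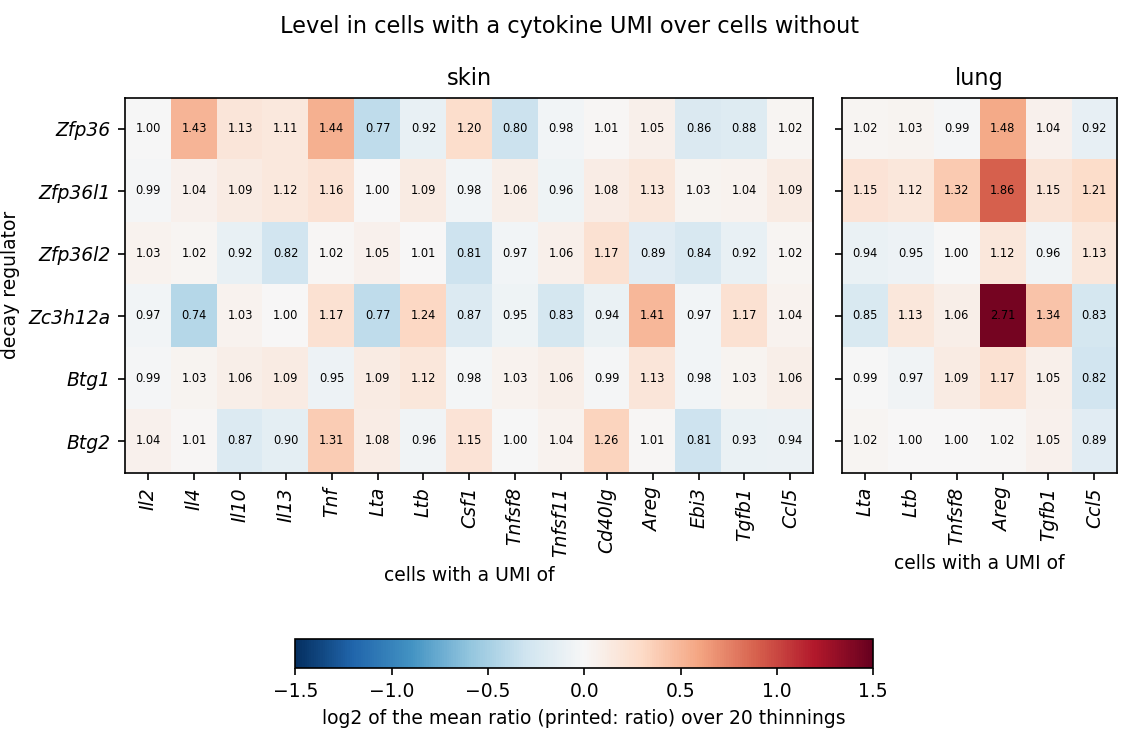
Ratio of the level of 6 decay regulators (rows) in cells with a UMI of a cytokine (columns) over cells without, in skin (left) and lung (right), as the mean over 20 thinnings to 1000 UMIs. The colour is the log2 of the printed ratio, and the darkest cell is Zc3h12a with Areg in lung at 2.71.

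The relation of Zc3h12a to Areg, which encodes the epithelial growth factor amphiregulin, had the same direction in both libraries. In skin, 3097 of 6012 thinned cells had an Areg UMI. Zc3h12a stood at 124 CPM in these and 79.9 CPM in the others, a ratio of 1.55 (1.31 to 1.83), where 1 of 6 members and 0.386% of 1553 genes were at least 1.5-fold higher. The mean over 20 thinnings was 1.41, with a range of 1.31 to 1.58, and 1 of the 20 passed 1.5-fold. Within quartiles of the early response sum the ratio of the first thinning was 1.52. In lung, 236 of 7765 thinned cells had an Areg UMI, with 19 Zc3h12a UMIs (80.6 CPM) against 28.6 CPM in the other 7529 cells. That is a ratio of 2.82 (1.67 to 4.52), below the 100 CPM needed to count. Its mean over 20 thinnings was 2.71, with a range of 1.73 to 4.0, and 2.36 was found within early response quartiles. With no doublet removal it was 1.63, and without cells with non-T markers 2.11.

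Read from the other side, in the first thinning only, Areg stood higher in cells with more Zc3h12a UMIs. This and the later levels by UMIs of a member count the same UMIs of the same cells another way. They are not a second observation and were not averaged over thinnings. In skin it stood at 1281 CPM (1251 to 1311) in 5442 cells with 0 Zc3h12a UMIs, 1744 CPM (1633 to 1861) in 528 cells with 1 and 2071 CPM (1659 to 2555) in 42 cells with at least 2. In lung the levels were 40.3 CPM in 7545 cells, 68.0 CPM in 206 cells and 500 CPM (201 to 1030) in 14 cells, of which the last rests on 7 Areg UMIs.

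Zfp36l1 was higher in lung cells with an Areg UMI, at 670 CPM in the 236 positive cells and 337 CPM in the others, a ratio of 1.99 (1.69 to 2.34). It was 1 of 5 members to pass, where 9.42% of 1252 genes were at least 1.5-fold higher in these cells. The mean over 20 thinnings was 1.86, with a range of 1.64 to 2.07, and the ratio within early response quartiles was 1.84, while without thinning it was 1.48. Early response UMIs differed as well, with a mean of 9.06 in Areg-positive and 6.33 in other lung cells. Areg itself stood at 30.4 CPM in lung cells with 0 Zfp36l1 UMIs, 59.7 CPM in those with 1 and 121 CPM in those with at least 2. In skin Zfp36l1 stood at 1423 CPM in Areg-positive and 1287 CPM in other cells, a ratio of 1.11 (1.06 to 1.16). Areg had a UMI in 3 of 141 thinned lung cells without a CD3 UMI, 2.13% (0.441 to 6.09), against 3.04% of the gated cells. Whether this was free RNA or RNA of those cells themselves was not measured. The lung Areg-positive set may hold free RNA, and the part of free RNA in these ratios was not tested.

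**Figure D4:**
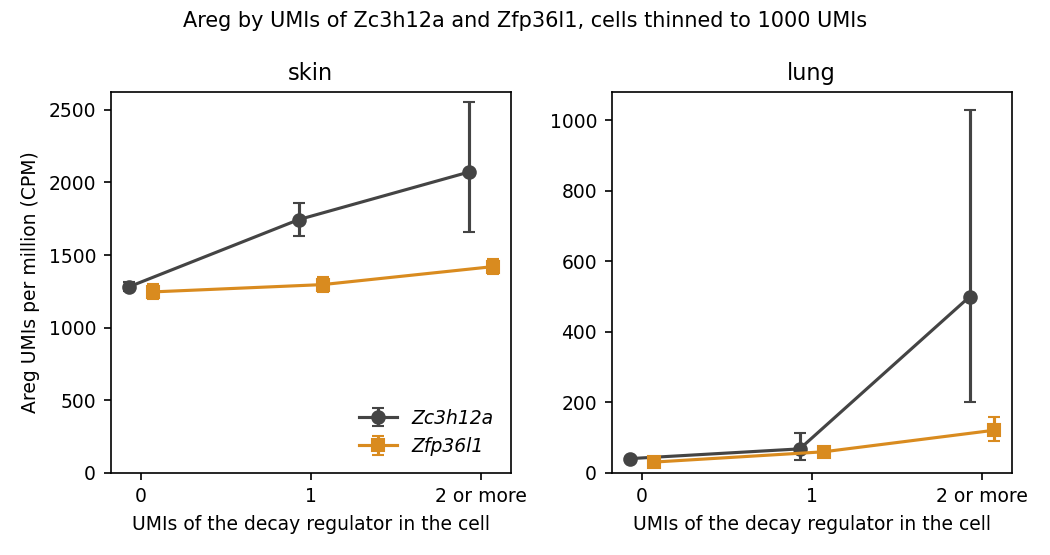
Areg level (CPM, linear axes from 0, which differ between the panels) in cells of the first thinning with 0, 1 or at least 2 UMIs of Zc3h12a (circles) or Zfp36l1 (squares), in skin (left) and lung (right), with 95% Poisson intervals. In skin Areg stands at 1281, 1744 and 2071 CPM by Zc3h12a UMIs, and the lung point at 500 CPM comes from 14 cells.

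Zfp36 by Il4 was the pair of this gene counted as higher in skin, and Zfp36 by Tnf lay within 1.5-fold. In the 235 cells with a UMI of Il4, the type 2 cytokine, Zfp36 stood at 793 CPM against 486 CPM in the rest, a ratio of 1.63 (1.40 to 1.89), and 2.80% of 1610 genes were at least 1.5-fold higher. That ratio was 1.33 within early response quartiles, and its mean over 20 thinnings was 1.43, with a range of 1.18 to 1.72. In the 254 cells with a UMI of Tnf, a classical tristetraprolin target, Zfp36 stood at 698 against 490 CPM, a ratio of 1.43 (1.22 to 1.66), with a mean of 1.44 over the thinnings and 1.19 within early response quartiles. Both sets of cells were richer in early response UMIs, 29.4 against 23.3 on average for Il4 and 29.7 against 23.2 for Tnf. Tnf stood at 41.0, 56.3 and 88.9 CPM in skin cells with 0, 1 and at least 2 Zfp36 UMIs.

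The 166 skin cells with a UMI of Lta, the gene of lymphotoxin alpha, were lower in Zfp36, at 332 against 503 CPM, a ratio of 0.659 (0.495 to 0.861). Zc3h12a was the other member counted as lower there, with 10 UMIs in these cells and a ratio of 0.583 (0.278 to 1.08), where 4.99% of 1663 genes were at least 1.5-fold lower. Neither kept 1.5-fold over the 20 thinnings, with means of 0.768 for both, and in a second thinning the Zc3h12a ratio lay on the other side of 1.

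All differences of Zfp36l2 by a cytokine lay within 1.5-fold, and a few had counting intervals away from 1. In the 691 skin cells with a UMI of Il13, a type 2 cytokine gene, it stood at 273 CPM against 356 CPM, a ratio of 0.765 (0.655 to 0.889) that was 0.749 within early response quartiles. The mean over 20 thinnings was 0.822, with a range of 0.729 to 0.928, all below 1. By Areg the ratio was 0.854 (0.783 to 0.931), with a range over the thinnings of 0.832 to 0.956. Il13 stood at 208 CPM (195 to 222) in skin cells with 0 Zfp36l2 UMIs, 177 CPM (154 to 202) in those with 1 and 127 CPM (93.6 to 168) in those with at least 2. Cells with a UMI of Cd40lg, the gene of the CD40 ligand, were opposite, with 441 against 337 CPM of Zfp36l2, a ratio of 1.31 (1.14 to 1.49), and a mean of 1.17 over the thinnings. In lung Areg-positive cells the mean ratio of Zfp36l2 was 1.12.

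Btg2 by Il10, the anti-inflammatory cytokine gene, also lay within 1.5-fold, at 596 CPM in the 1156 positive skin cells against 705 CPM. The ratio was 0.845 (0.778 to 0.918), 0.806 within early response quartiles, and between 0.807 and 0.908 over the thinnings. Il10 stood at 364, 323 and 292 CPM in cells with 0, 1 and at least 2 Btg2 UMIs. By Il2, the growth factor gene whose message carries a nonamer, no member departed from a ratio of 1 beyond its counting interval in the 372 positive cells, and Zfp36 stood at 487 against 499 CPM, a ratio of 0.976 (0.835 to 1.13).

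Splits by the activation genes Nr4a1 and Cd69 gave differences of like size to those by cytokines. In skin cells with a UMI of Nr4a1, an orphan receptor gene induced by the T cell receptor, Zc3h12a stood at 113 against 72.6 CPM, a ratio of 1.56 (1.27 to 1.93) with a mean of 1.35 over the thinnings. It was 1 of 6 members to pass, where 0.320% of 1562 genes were at least 1.5-fold higher. In lung cells with an Nr4a1 UMI, Zfp36 stood at 190 against 123 CPM, a ratio of 1.54 (1.31 to 1.79) with a mean of 1.44. It was 1 of 5 members to pass, beside 1.30% of 1158 genes. Zfp36l1 had a mean of 1.46 over the thinnings in the same split, with a range of 1.31 to 1.61. It passed 1.5-fold in 5 of the 20 thinnings, against 2 of 20 for Zfp36. By Cd69, the early activation antigen gene, Zfp36 had a ratio of 1.28 (1.19 to 1.38) in skin and 1.28 (1.08 to 1.51) in lung. Within early response quartiles these were 1.06 and 1.20.

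Likeness across cells was measured as Pearson's r of log(1 + UMIs) over the thinned cells of a library, among 2594 genes in skin and 1950 in lung that had a UMI in at least 5% of cells. Cells of a library share its depth and its free RNA, and every value was low. In skin, Zfp36 was most like Fos (r = 0.29), Dusp1 (0.20) and Klf6 (0.17), and Btg2 was most like Fos (0.16), Junb (0.15) and Jund (0.12). Btg1 was most like the nuclear RNA Malat1 (0.23), Junb (0.17) and Nfkbia (0.15), and Zfp36l1 was most like Btg1 (0.13), Malat1 (0.13) and Nfkbia (0.10). For Zc3h12a the gene with the highest r in skin was Areg (0.074), followed by Nr4a1 (0.063) and Crem (0.062), values too low to call a pattern.

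In lung, Zfp36l2 and Btg1 shared the genes most like them. Vps37b stood first for both, at r = 0.19 for Zfp36l2 and 0.25 for Btg1, over 7765 cells. Dusp10 followed at 0.16 and 0.21, and the 2 members themselves correlated at 0.12. Zfp36 was again most like Fos (0.11), followed by Jun (0.097) and Junb (0.087), and Zfp36l1 most like Nfkbia (0.100), Malat1 (0.094) and Ikzf2 (0.091). Btg2 was most like Malat1 (0.13), Jun (0.11) and Fos (0.077). How often pairs of members occurred in the same cell ran from 0.746 to 1.71 times what the product of their shares gives. The lowest was Rc3h1 with Btg2, in 40 lung cells where the product gives 53.6, and the highest Zc3h12d with Rc3h1, in 17 skin cells where it gives 9.96. For Zfp36 with Zfp36l1, 1511 skin cells held both where the product of the shares gives 1471. The pair of Zfp36l1 with Zc3h12a in lung was seen in 79 cells where the product gives 59.0.

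Most tested genes of the general decay machinery lay within 2-fold between the tissues, as did 4539 of all 5686 genes tested. Among the other genes of the CCR4-NOT complex and the BTG and TOB family, 12 of 13 with at least 20 CPM lay within 2-fold. Btg3 was higher in skin, at 57.6 against 25.4 CPM (2.27-fold, 2.03 to 2.53), and Tob2, which like BTG proteins binds the deadenylase, stood at 205 against 109 CPM. All 4 tested genes of the PAN and PARN deadenylases and poly(A) binding lay within 2-fold, Pabpc1 at 815 CPM in skin and 1038 CPM in lung. So did all 5 of decapping and 5′ decay, with Pnrc1 at 889 against 602 CPM. The 6 tested genes of other AU-rich element binding proteins were also within 2-fold, among them Elavl1, which encodes the stabilising protein HuR, at 192 against 130 CPM. Btg3, at a log2 ratio of 1.04, would not pass 2-fold if ratios were taken relative to the median of all genes. The medians of these lists ran from 0.09 to 0.56 on the log2 scale, beside 0.37 for all genes.

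Of the other Regnase and Roquin family and their partners, 1 of 4 passed 2-fold: N4bp1, which encodes another RNA-cutting protein that restrains cytokine production, stood at 104 CPM in skin and 8.84 CPM in lung, 11.8-fold (10.1 to 13.8) higher. The median log2 ratio of those 4 genes was 0.32, below that of all genes. Of all 5686 genes tested, 15.2% passed 2-fold toward skin, so 1 of 4 genes is too few to set apart from that share. Rc3h2, which encodes Roquin-2, stood at 29.1 against 18.0 CPM. Beside that share, 4 of 6 regulators passed 2-fold toward skin. These were Dusp1 (3761 against 784 CPM), a phosphatase that shuts off the kinases acting on tristetraprolin, Ywhah (463 against 164 CPM), a 14-3-3 protein gene, Malt1 (85.1 against 30.6 CPM), the protease that cleaves Regnase-1 and Roquin-1, and Mapkapk2 (41.7 against 17.4 CPM), the kinase that inactivates tristetraprolin. Relative to the median of all genes, Malt1, at a log2 ratio of 1.34, and Mapkapk2, at 1.06, would not pass, so only Dusp1 and Ywhah would remain of the 6.

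Messages known as targets of these proteins were mostly higher in skin, the library with more Zfp36, Zfp36l1, Zc3h12a and Zc3h12d and less Zfp36l2. Of 15 known targets, 11 passed 2-fold toward skin and 0 toward lung, and the median log2 ratio was 1.82. Over all 5686 genes tested, 15.2% passed toward skin and 4.96% toward lung, with a median of 0.37. Irf4, a transcription factor of effector Tregs, stood at 70.0 against 6.28 CPM, Nfkbid at 414 against 48.8 CPM, Nfkbiz at 341 against 75.2 CPM and the costimulatory receptor gene Icos at 1115 against 253 CPM. Of 15 cytokine genes tested, 11 passed 2-fold toward skin, with a median of 2.04. Areg was 29.9-fold (27.9 to 32.0) higher and Il10 37.7-fold (32.4 to 44.0). Of the 16 early response genes, 12 passed it, with a median of 1.93. The lists overlap: Nfkbia is both a known target and an early response gene, and Dusp1 both a regulator and an early response gene. These lists were drawn up with earlier results of these data known and are not independent evidence of a direction.

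**Figure D5:**
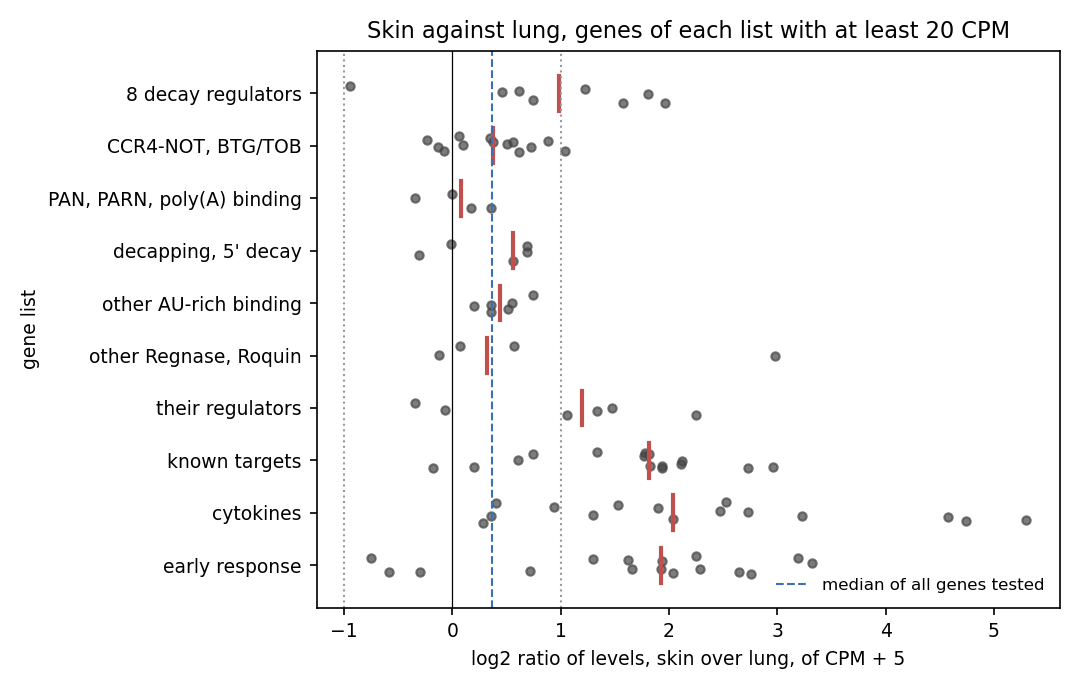
Log2 ratio of levels in skin over lung, of CPM + 5, for each gene with at least 20 CPM (dots, spread vertically only to separate them) in the 8 decay regulators and 9 related lists. Red bars are list medians, dotted lines mark 2-fold and the dashed line marks the median of all genes, 0.37. The general decay lists lie near the dashed line, and the lists of known targets, cytokines and early response genes lie to its right with medians of 1.82 to 2.04.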

How the data were processed

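The authors deposited raw UMI counts per gene and called cell barcode. Cell Ranger and mm10 are named in the submitters' processing notes, and software version 3.0.2 stands in the lung file headers. The skin gene list holds 27998 identifiers and the lung list 31053, and 27514 occur in both. Of 2 lung matrices the one not labelled lane1 was used. Barcodes with at least 200 genes, at most 10% mitochondrial UMIs and outside the top 6% of Scrublet scores (scanpy 1.11.5, a cut set because the caller marked 0.0309% of skin and 0.0231% of lung cells) and with a CD3 UMI were kept. Counts were pooled per library as CPM, with exact Poisson, binomial (ratios) and Clopper-Pearson (shares) intervals. Library totals in shared genes were 14487161 UMIs for skin and 21487514 for lung cells. The splits left the cytokine out of the totals. Scripts were tested on simulated data. The genes and all lists were chosen with earlier results of these data known, and the named genes follow a rule: all 8 members, cytokines with 100 positive cells, Nr4a1, Cd69, up to 4 genes with the widest ratio per list and the 3 most alike genes per member. A few other genes were named after their values were seen. Alternatives are given in the closing section.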

Additional observations from a re-analysis of the deposited data

Results flagged for a closer look

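Of 64 combinations of a member and a cytokine or activation gene that could be compared in both tissues, 1 lay on opposite sides of 1 with both counting intervals away from it. Btg1 was 1.08-fold (1.03 to 1.13) higher in skin cells with a UMI of Ccl5, a chemokine gene of cytotoxic lymphocytes, than in those without, and stood at a ratio of 0.838 (0.756 to 0.927) in lung cells. Over 20 thinnings the ratio ran from 1.01 to 1.13 in skin and from 0.740 to 0.887 in lung. The difference between the tissues was not tested.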

How the results depend on the processing

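Of the other settings run, 2 were added after seeing the data, the mean over 20 thinnings and the 9 to 15 early response UMIs. The count of members at least 2-fold higher (4 in skin, 0 in lung) became 3 and 1 under median-of-ratios size factors, and likewise with totals that leave out mitochondrial and ribosomal protein genes, 2 and 1 at 9 to 15 early response UMIs, and 2 and 1 of the 7 members tested in the lowest quartile of the early response share, where 27.0% of all genes passed toward skin and 9.54% toward lung. That quartile held only 34 skin cells against 3430 lung cells, and the log2 ratio turned to −0.20 for Zc3h12a (2 skin UMIs), −0.45 for Btg1 and −0.46 for Btg2. With a pseudocount of 1 CPM, a floor of 5 CPM, at least 2 CD3 UMIs, no doublet removal, a Foxp3 UMI or no cells with non-T markers the counts stayed at 4 and 0.

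The skin counts of member and cytokine pairs, 2 higher and 2 lower as reported, were 0 and 1 in cells thinned to 1500 UMIs, 0 and 0 unthinned, 1 and 0 in a second thinning, 1 and 1 within early response quartiles, 1 and 0 without cells with non-T markers, 1 and 1 with no doublet removal, and 0 and 0 as the mean over 20 thinnings. A floor of 50 CPM gave 4 lower. The 1 higher pair in lung became 2 at 1500 UMIs, without cells with non-T markers and at the 50 CPM floor, and 0 unthinned. The log2 ratio of Zc3h12a in skin cells with an Lta UMI turned to 0.0091 in the second thinning and 0.065 with no doublet removal. The lung ratio of Zc3h12a by Areg, 2.82 as reported, ran from 1.63 with no doublet removal to 3.40 at 1500 UMIs. The cause of these moves was not tested. At this depth a thinned skin cell held a mean of 0.102 Zc3h12a UMIs. No paired analysis was possible because each tissue has 1 sample.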
